A study of Mus musculus with 15 samples.

Results

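The Egr, Fos and Jun transcription factors are a set of 10 genes in this heart dataset: Egr1, Egr2 and Egr3 of the Egr family, Fos, Fosb, Fosl1 and Fosl2 of the Fos family, and Jun, Junb and Jund of the Jun family. They were chosen by name, and all 10 were among the 16658 genes of the expression table and among the 13541 genes expressed highly enough to be tested. RNA was taken from mouse heart tissue holding the infarct and the muscle around it. Per the labels, the mice were male C57BL/6 animals of 8 to 10 weeks, ischaemia was set by a ligature on the left anterior descending artery for 90 min, and reperfusion ran for 24 h before collection.

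The labels give 5 treatments. Activated protein C (aPC), an anticoagulant protease of plasma, was given at 1 mg/kg 30 min before surgery. Dabigatran, a direct inhibitor of thrombin (factor IIa), was given at 10 mg/kg for 7 days before it, and rivaroxaban, a direct inhibitor of factor Xa, at 3 mg/kg for 7 days. All 3 drugs were resumed 2 h after surgery. The remaining groups are labelled untreated and sham, and the labels describe the operation once for the whole study, so neither is given an operation of its own here. The data are 11 libraries: aPC-791 and aPC-792, Dabi-202 and Dabi-204 (dabigatran), Riva-313 and Riva-319 (rivaroxaban), untreated replicates 17 and 19, and sham replicates 003, 006 and 007. Another 4 of the 15 labelled samples were not analysed here. Each library carries its own number, but no label says that each came from its own mouse, so p-values measure the spread between these samples, which may be technical.

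Many Egr and Fos genes are immediate-early genes. Growth factors, stretch, thrombin and ischaemia act through MAP kinases, calcium and cyclic AMP on transcription factors already bound at their promoters, and the transcripts appear and decay quickly. Egr proteins are zinc finger factors that bind GC-rich sites and are held back by the Nab corepressors. Fos proteins pair with Jun proteins, through leucine zippers, to form AP-1, which acts on genes of matrix turnover, plasminogen activation and inflammation; Jun proteins also pair with each other. In the heart, Egr1 and AP-1 are known as early responders to ischaemia and reperfusion.

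The 250 bases upstream of the start are shown for Egr2, Fosb and Fos, which varied most between libraries, and for Jun, which varied less than every member but Jund. Windows of RefSeq on build GRCm38.p6 were matched for 7 of the 10 members: Egr2, Fos, Fosb, Fosl2, Jun, Junb and Jund. Egr2 had 5 windows listed. Only the one nearest the start of its principal GENCODE transcript was searched for it and is shown. The windows shown are chr10:67537619-67537868 (plus strand) for Egr2, chr7:19310046-19310295 (minus strand) for Fosb, chr12:85473640-85473889 (plus strand) for Fos and chr4:95052223-95052472 (minus strand) for Jun. Each is written 5′ to 3′ and ends at the base before the annotated start. Capitals mark letters that match a searched motif.
Egr2: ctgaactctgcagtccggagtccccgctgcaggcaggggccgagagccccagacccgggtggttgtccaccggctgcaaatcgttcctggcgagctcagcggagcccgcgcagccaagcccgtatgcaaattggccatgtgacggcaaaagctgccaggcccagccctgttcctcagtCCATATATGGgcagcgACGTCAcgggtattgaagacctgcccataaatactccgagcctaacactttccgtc
Fosb: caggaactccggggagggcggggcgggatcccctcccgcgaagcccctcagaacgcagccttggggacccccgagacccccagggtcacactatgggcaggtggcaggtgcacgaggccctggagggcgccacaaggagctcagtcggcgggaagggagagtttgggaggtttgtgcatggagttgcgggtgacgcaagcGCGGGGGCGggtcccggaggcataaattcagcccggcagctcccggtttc
Fos: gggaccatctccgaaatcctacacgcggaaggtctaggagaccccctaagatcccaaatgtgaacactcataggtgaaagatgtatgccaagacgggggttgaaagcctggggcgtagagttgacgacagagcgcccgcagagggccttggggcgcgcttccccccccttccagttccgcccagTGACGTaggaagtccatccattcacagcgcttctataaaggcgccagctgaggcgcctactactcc
Jun: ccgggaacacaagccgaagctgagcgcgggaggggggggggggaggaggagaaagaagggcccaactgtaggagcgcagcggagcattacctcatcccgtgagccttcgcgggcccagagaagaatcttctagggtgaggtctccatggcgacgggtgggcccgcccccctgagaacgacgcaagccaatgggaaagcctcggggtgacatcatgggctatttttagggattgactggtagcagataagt

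Both strands were searched for the CArG box (the site of serum response factor), TGACGT (the core of the cyclic AMP response element), the full element TGACGTCA, the AP-1 site TGANTCA and the Egr site GCGNGGGCG, which were picked with the values and sequences in view. TGACGT lies within TGACGTCA, so those 2 searches overlap. The Egr2 window held a CArG box from 72 to 63 bases upstream and TGACGT, on the other strand, from 56 to 51 bases upstream. TGACGT lay from 66 to 61 bases upstream in the Fos window, and the Egr site lay from 50 to 42 bases upstream in the Fosb window. The Egr site was also found in the Fosl2 window, which ends 671 bases from the start of the principal GENCODE transcript. None of these letters was found in the windows of Jun, Junb and Jund, and the Jund window ends 1210 bases from the start of its principal GENCODE transcript, so it need not be the promoter of that transcript. Among all 32851 RefSeq windows of this length, 1.47% held a CArG box, 6.47% TGACGT, 1.55% TGACGTCA, 6.75% the AP-1 site and 4.7% the Egr site. A match describes letters and does not show that a factor was bound. Only exact letters within 250 bases were searched. A window without a match may therefore hold a site with other letters, and a site may lie farther upstream. The Jun window holds tgacatca, which differs from TGACGTCA in a single letter and was not counted.

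The genes lie on 9 mouse chromosomes (build GRCm38, also called mm10, annotation of GENCODE release M21). Egr1 spans chr18:34859823-34864984 on the plus strand, Egr2 chr10:67535475-67542188 on the plus strand and Egr3 chr14:70077203-70082614 on the plus strand, each with 2 exons in its principal transcript. Fos spans chr12:85473890-85477273 (plus strand), Fosb chr7:19302696-19310051 (minus strand), Fosl1 chr19:5447547-5455946 (plus strand) and Fosl2 chr5:32135801-32157842 (plus strand), each with 4 exons. Jun at chr4:95049034-95052222 (minus strand), Junb at chr8:84974484-84978718 (minus strand) and Jund at chr8:70698949-70700616 (plus strand) have 1 exon each. Fosl1 overlaps Ccdc85b on the opposite strand over 2767 bases, Jun overlaps Junos over 689 bases, Junb overlaps Prdx2 over 351 bases and Jund overlaps Gm11175 over 919 bases. The strand setting of the counting is not given in the sources used here, so the values of these 4 members are uncertain to the extent that reads of the partner were mixed in.

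Values are log2 CPM, the log2 of read counts scaled to a common library size. Reads on listed genes ran from 26203566 (Dabi-202) to 36135006 (Dabi-204) per library, and a gene with 3 reads would lie between -2.83 and -2.41, below every value given here. Cardiomyocyte markers summed to between 39280 and 79130 CPM in the 11 libraries, lowest in the dabigatran pair, whereas T cell markers (Cd3g and Cd3d at 0 in some libraries) reached at most 2.2 CPM. Neutrophil markers (7 of 7 tested, none at 0) summed to 103 and 41.0 CPM in aPC hearts, 937 and 557 CPM in dabigatran hearts, 17.3 and 39.2 CPM in rivaroxaban hearts, 95.3 and 139 CPM in untreated hearts, and from 30.2 to 47.7 CPM in sham hearts. Counts of neutrophil and of other cell type markers called are given with the comparisons in which members were called, and their part in the members' values was not tested. In such bulk tissue, fewer cells of a type and less RNA per cell cannot be told apart. Libraries also stood apart within groups. All 10 members were higher in Dabi-202 than in Dabi-204, by a median of 0.92 log2 units. When limma estimated library weights, the untreated pair took the lowest (0.24 each, against 0.66 to 3.15 elsewhere). Both libraries of each pair received the same weight, so the weights do not rank the libraries within a pair.

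On a scale that allows genes to be compared, CPM per kilobase of exon, Jund was the most abundant member in every group. In sham hearts it stood at 56.4 ± 3.34 CPM per kb (SD, n = 3), followed by Jun at 22.1 ± 4.71 and Junb at 17.8 ± 3.27, whose libraries overlap. Egr1 (8.56 ± 4.83 CPM per kb), Fosl2 (5.02 ± 1.35) and Fos (4.74 ± 3.33) came next and overlap each other, and Fosl1 (2.97 ± 0.0386) lies within the range of Fos. The least abundant in sham hearts were Egr2 at 0.692 ± 0.0643, Egr3 at 0.268 ± 0.0546 and Fosb at 0.181 ± 0.00951 CPM per kb. Jund remained first at 69.5 ± 27 CPM per kb in dabigatran hearts and 52.1 ± 6.79 in untreated hearts (SD, n = 2 each). Junb was second in these groups, at 42.8 ± 18.2 and 37.1 ± 7.38 CPM per kb, and Jun was second in aPC, rivaroxaban and sham hearts.

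**Figure D1:**
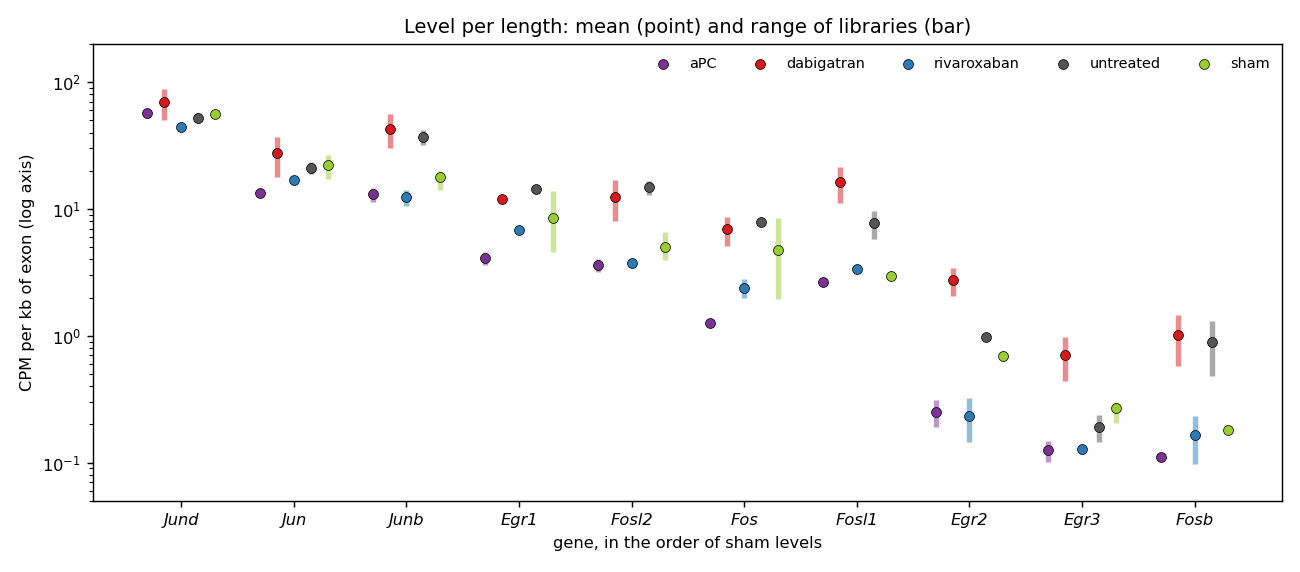
Level of each member as CPM per kilobase of exon on a log axis, with genes in the order of their sham levels; points are group means and bars span the libraries of a group (n = 3 in sham, n = 2 in the other groups). Jund is the highest member in all 5 groups, and Egr2, Egr3 and Fosb lie at or below 3.42 CPM per kb in every library.

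The members differed widely in how far they moved between libraries. The SD of log2 CPM over the 11 libraries was 1.35 for Fosb, 1.33 for Egr2, 1.10 for Fos and 1.03 for Fosl1, but 0.44 for Jun and 0.28 for Jund. The median SD over all tested genes was 0.34, and 9 of the 10 members lay above it. Of all tested genes, 2.48% had a larger SD than Fos and 62.6% a larger SD than Jund.

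**Figure D2:**
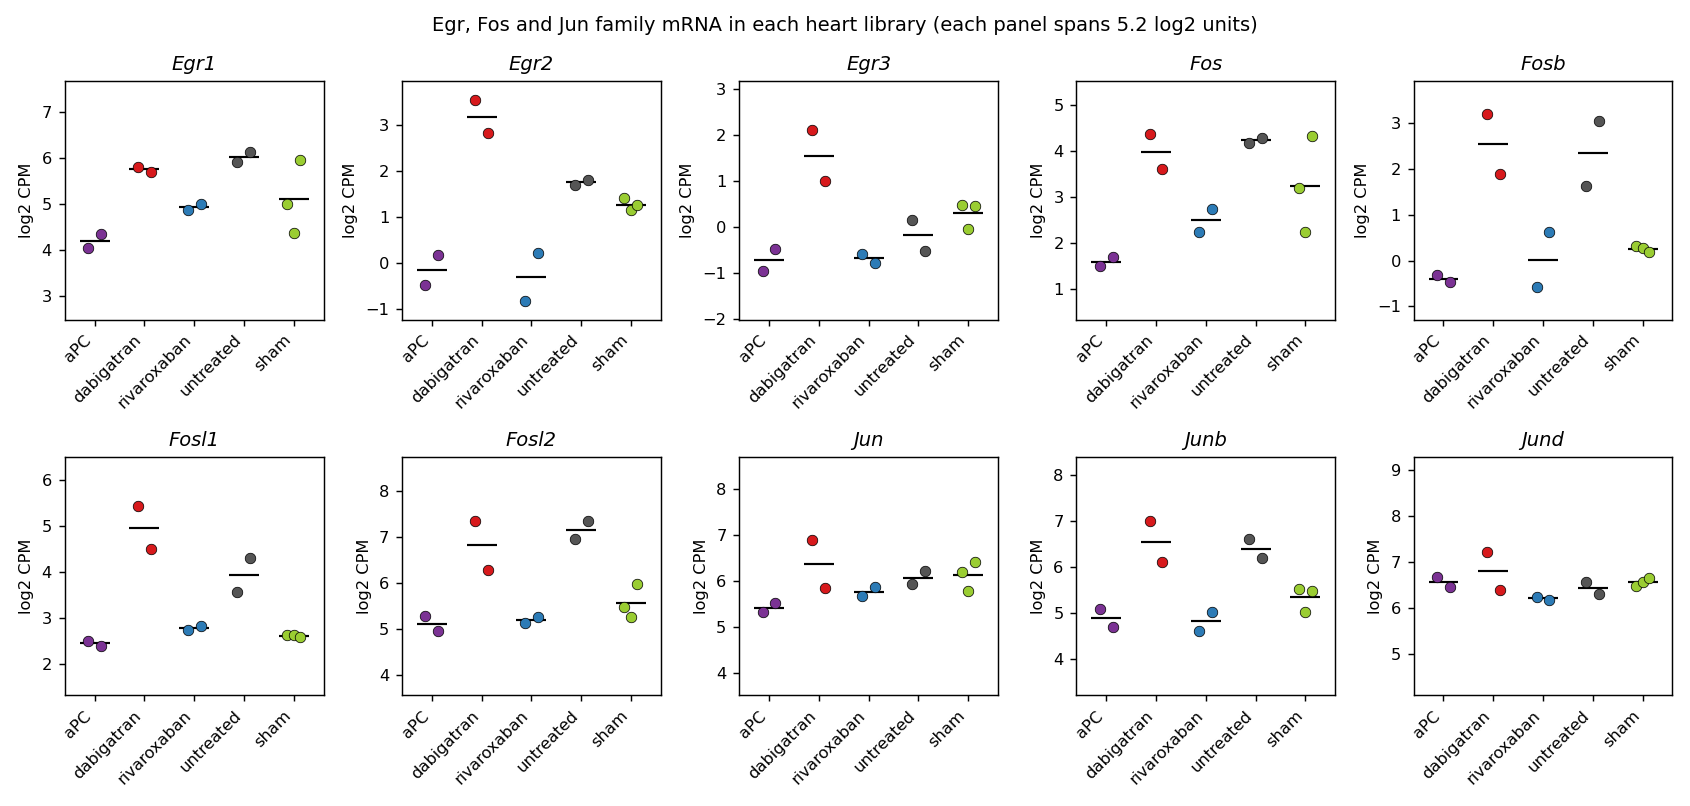
Log2 CPM of the 10 members in each library (points) with group means (lines), on panels of equal span, for aPC, dabigatran, rivaroxaban and untreated hearts (n = 2 each) and sham hearts (n = 3). Most members are high in dabigatran and untreated hearts and low in aPC and rivaroxaban hearts, while Jun and Jund stay within 1.56 and 1.04 log2 units over all libraries.

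The Egr family had its highest level in untreated hearts for Egr1 and in dabigatran hearts for Egr2 and Egr3. Egr1, the factor most studied in vascular and cardiac injury, read 4.03 and 4.35 log2 CPM in aPC hearts, 5.81 and 5.70 in dabigatran hearts, 4.86 and 5.01 in rivaroxaban hearts, 5.91 and 6.12 in untreated hearts, and 5.0, 4.37 and 5.97 in sham hearts. Sham replicate 007 reached the untreated level, so sham overlaps every other group except aPC. Egr2, known for its roles in myelinating cells and in T cell restraint, read -0.48 and 0.18 log2 CPM in aPC hearts, 3.55 and 2.82 in dabigatran hearts, -0.83 and 0.21 in rivaroxaban hearts, 1.69 and 1.80 in untreated hearts, and 1.40, 1.14 and 1.27 in sham hearts. Only aPC and rivaroxaban overlapped each other for Egr2; every other pair of groups was apart. Egr3, a close relative of Egr2, read -0.96 and -0.47 log2 CPM in aPC hearts, 2.12 and 0.99 in dabigatran hearts, -0.58 and -0.78 in rivaroxaban hearts, 0.15 and -0.51 in untreated hearts, and 0.48, -0.05 and 0.46 in sham hearts. Dabigatran libraries were above all others for Egr3; of the rest, the sham libraries were apart from the aPC and rivaroxaban pairs, and the untreated pair overlapped sham and aPC but not rivaroxaban.

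Fos family members were high in dabigatran and untreated hearts. Fos, the founding member and classical immediate-early gene, read 1.49 and 1.69 log2 CPM in aPC hearts, 4.36 and 3.59 in dabigatran hearts, 2.24 and 2.74 in rivaroxaban hearts, 4.17 and 4.28 in untreated hearts, and 3.18, 2.22 and 4.31 in sham hearts. The 3 sham libraries spread over most of the range of the other groups. Fosb, whose protein has a long-lived short form in the brain, read -0.32 and -0.47 log2 CPM in aPC hearts, 3.20 and 1.87 in dabigatran hearts, -0.58 and 0.61 in rivaroxaban hearts, 1.62 and 3.04 in untreated hearts, and 0.32, 0.27 and 0.18 in sham hearts. Dabigatran and untreated libraries overlapped each other and lay above all the rest. Fosl1, which encodes Fra-1, read 2.5 and 2.39 log2 CPM in aPC hearts, 5.44 and 4.50 in dabigatran hearts, 2.74 and 2.83 in rivaroxaban hearts, 3.56 and 4.31 in untreated hearts, and 2.62, 2.62 and 2.59 in sham hearts. For Fosl1 the dabigatran pair lay above the untreated pair, and the untreated pair above the other 7 libraries. Fosl2, which encodes Fra-2, read 5.28 and 4.94 log2 CPM in aPC hearts, 7.36 and 6.29 in dabigatran hearts, 5.14 and 5.25 in rivaroxaban hearts, 6.95 and 7.34 in untreated hearts, and 5.47, 5.26 and 5.98 in sham hearts. Again dabigatran and untreated hearts overlapped, above every other library.

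In the Jun family, Junb varied more than Jun and Jund. Junb, a Jun protein that often restrains Jun, read 5.09 and 4.71 log2 CPM in aPC hearts, 7.00 and 6.11 in dabigatran hearts, 4.61 and 5.02 in rivaroxaban hearts, 6.60 and 6.2 in untreated hearts, and 5.52, 5.02 and 5.48 in sham hearts. Dabigatran and untreated libraries overlapped and lay above all others. Jun, the main AP-1 partner of Fos, read 5.32 and 5.51 log2 CPM in aPC hearts, 6.88 and 5.84 in dabigatran hearts, 5.67 and 5.86 in rivaroxaban hearts, 5.92 and 6.21 in untreated hearts, and 6.18, 5.77 and 6.40 in sham hearts. The aPC pair was lowest for Jun and the other groups overlapped in most pairs. Jund, the constitutive Jun protein of many tissues, read 6.68 and 6.44 log2 CPM in aPC hearts, 7.21 and 6.39 in dabigatran hearts, 6.23 and 6.17 in rivaroxaban hearts, 6.57 and 6.30 in untreated hearts, and 6.47, 6.56 and 6.64 in sham hearts. A single library, Dabi-202, stood above all others for Jund, and Dabi-204 lay among them.

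Untreated against sham hearts. Fosb, Fosl1, Fosl2 and Junb were higher in untreated hearts, and the other 6 members did not pass the test. All log2 fold changes come from limma-trend over the 13541 genes, with the standard error after ±, and calls required an adjusted p (Benjamini-Hochberg) under 0.05. Here 4 of 10 members were called higher and 0 lower, where 5.07% of all tested genes were called higher and 5.52% lower. Fosl2 was 2.98-fold higher (log2 1.58 ± 0.30, limma-trend adjusted p = 0.0141) and Fosl1 2.5-fold higher (1.32 ± 0.28, limma-trend adjusted p = 0.02). Fosb was 4.22-fold higher (2.08 ± 0.51, limma-trend adjusted p = 0.0327) and Junb 2.08-fold higher (1.06 ± 0.27, limma-trend adjusted p = 0.037). Egr1 at 0.90 ± 0.35 and Fos at 0.99 ± 0.48 did not pass (limma-trend adjusted p = 0.11 and 0.189), and 5 members had an unadjusted p under 0.05. The difference for Jun was -0.05 (95% interval -0.67 to 0.56) and for Jund -0.12 (-0.57 to 0.34). The libraries were apart, with untreated higher, for 5 members, against 21.4% of all genes, and with untreated lower for 0, against 22.1%. The median log2 fold change was 0.95 over the members and -0.03 over all tested genes. The count of members called was 0 without untreated replicate 19 or sham replicate 006, when 703 and 261 of all genes were called in place of 1435, and 1, Fosl2, without sham replicate 003 (447 genes). Without sham replicate 007 (710 genes) Fosl2 kept its call, Fosb, Fosl1 and Junb lost theirs, and Egr1 and Fos were called. Junb was called in 4 of the 11 fits that left out a library. It was 2 with the 2 groups fitted alone (471 genes) and 0 with a weight for each library (25 genes), and those weights were lowest for the untreated pair. Neutrophil markers had 5 of 7 called higher, at 95.3 and 139 CPM in untreated hearts against 30.2 to 47.7 CPM in sham hearts. Macrophage and monocyte markers had 4 of 7 called lower, at 164 to 173 CPM in untreated hearts against 378 to 541 CPM in sham hearts. Of the other lists, 1 of 6 fibroblast and 1 of 6 smooth muscle and pericyte markers were called lower, and of 6 endothelial markers 1 was called higher and 2 lower.

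**Figure D3:**
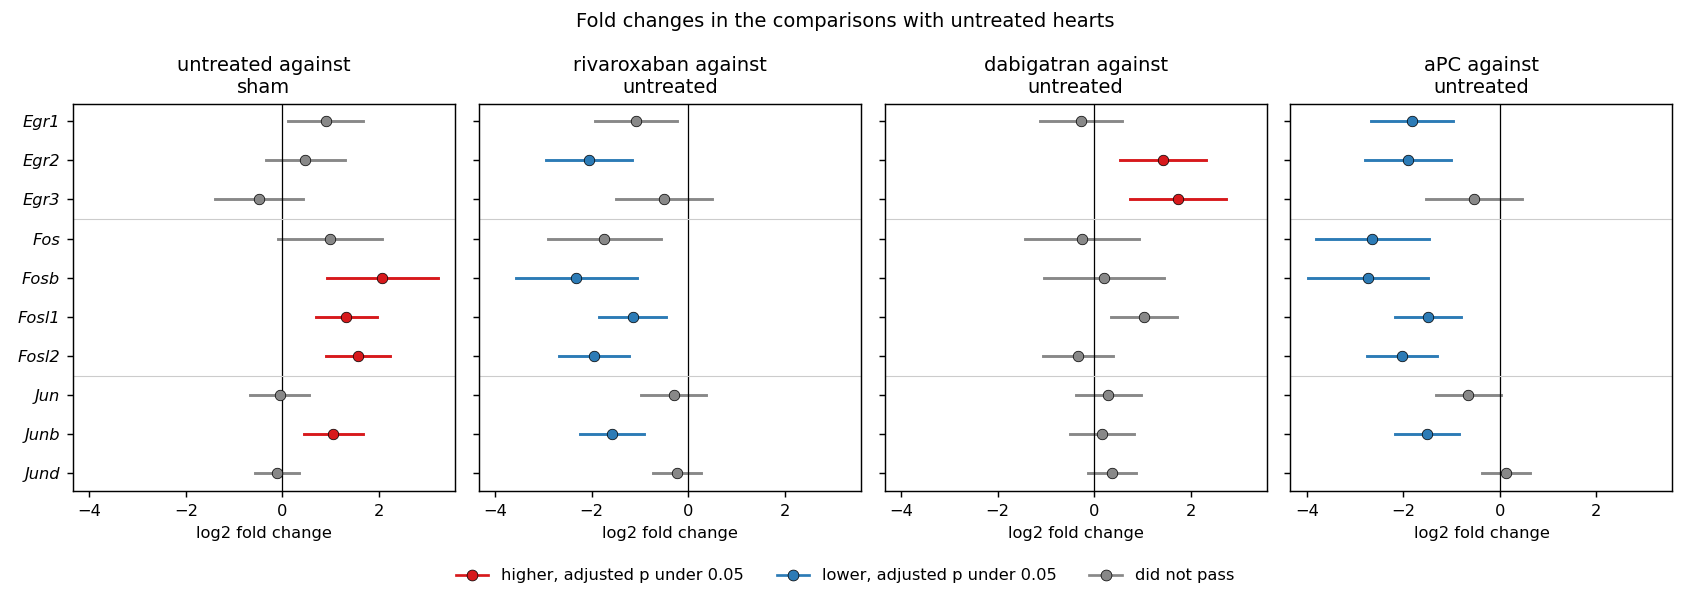
Log2 fold change of each member with its 95% interval from limma-trend, for untreated against sham hearts and for each drug against untreated hearts; red and blue mark members called higher and lower, and grey those that did not pass. In the order shown, 4 members are red against sham, 5 are blue with rivaroxaban, 2 are red with dabigatran and 7 are blue with aPC.

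Rivaroxaban against untreated hearts. All 10 members were lower in both rivaroxaban libraries than in both untreated libraries; the libraries of 27.4% of all tested genes were apart in that direction and those of 28.1% in the other. By the test 5 members were called lower and 0 higher, where 4.45% of all tested genes were called lower and 4.02% higher. Fosl2 was 3.87-fold lower (log2 -1.95 ± 0.33, limma-trend adjusted p = 0.0101), Junb 3.00-fold lower (-1.59 ± 0.30, limma-trend adjusted p = 0.016) and Egr2 4.17-fold lower (-2.06 ± 0.40, limma-trend adjusted p = 0.0179). Fosb was 4.99-fold lower (-2.32 ± 0.56, limma-trend adjusted p = 0.0335) and Fosl1 2.22-fold lower (-1.15 ± 0.31, limma-trend adjusted p = 0.0478). Fos at -1.74 ± 0.53 and Egr1 at -1.08 ± 0.38 did not pass (limma-trend adjusted p = 0.0683 and 0.0984). The log2 fold changes of Egr3 (-0.50 ± 0.45), Jun (-0.30 ± 0.30) and Jund (-0.24 ± 0.22) did not pass. The median log2 fold change was -1.37 over the members and 0.02 over all tested genes. Leaving out a library of a group outside the comparison keeps the fold change and alters only the shared estimate of the spread. When each library was left out in turn, Egr2 was called in 10 of 11 fits, Fosl2 and Junb in 9, Fosb in 5 and Fosl1 in 3. The count of members called was 0 without Riva-313, 1 (Egr2) without Riva-319, and 3 without untreated replicate 19 or sham replicate 003, when 43, 112, 651 and 685 of all genes were called in place of 1147. It was 0 with the 2 groups fitted alone, where 0 of all 13541 genes were called, and 0 with library weights, where 37 were. In the fit of the 2 groups, 7 members and 2287 of all genes had an unadjusted limma-trend p under 0.05. With library weights, 5 members and 2294 of all genes had one. The count of members called was 3 with voom on recovered reads (1025 genes). With the stricter filter (978 genes), under which 7 members were tested, 3 were called. Neutrophil markers had 5 of 7 called lower here, and macrophage and monocyte markers, at 298 to 328 CPM in rivaroxaban hearts against 164 to 173 CPM in untreated hearts, had 4 of 7 called higher. Of the other lists, 1 of 6 fibroblast, 1 of 6 endothelial and 2 of 6 smooth muscle and pericyte markers were called higher.

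Dabigatran against untreated hearts. Egr2 and Egr3 were higher in dabigatran hearts, and no Fos or Jun gene passed the test. Members called were 2 higher and 0 lower of 10, where 8.71% of all tested genes were called higher and 5.08% lower. Egr3 was 3.33-fold higher (log2 1.74 ± 0.45, limma-trend adjusted p = 0.0312) and Egr2 2.70-fold higher (1.43 ± 0.40, limma-trend adjusted p = 0.0412). Fosl1 at 1.04 ± 0.31 did not pass (limma-trend adjusted p = 0.052), although its libraries were apart, as were those of 3 members in all with dabigatran higher, against 27% of all genes. Egr1 was the 1 member whose dabigatran libraries lay below the untreated ones (21.5% of all genes did), at -0.26 ± 0.38. Log2 fold changes of Fos (-0.25, 95% interval -1.43 to 0.92), Fosb (0.20, -1.05 to 1.45), Fosl2 (-0.33, -1.05 to 0.40), Jun (0.29, -0.38 to 0.97), Junb (0.16, -0.51 to 0.82) and Jund (0.36, -0.13 to 0.86) had intervals that include 0. The median log2 fold change was 0.25 over the members and 0.05 over all tested genes. The count of members called was 0 without Dabi-202 or sham replicate 003, when 662 and 1314 of all genes were called in place of 1868. It was 4 (Egr2, Egr3, Fosl1 and Jund) without Dabi-204 (1361 genes). It was 1, with 1286 to 1527 of all genes called, without untreated replicate 19 (Fosl1), Riva-313 or Riva-319 (Egr2), or sham replicate 006 or 007 (Egr3). It was 0 after quantile normalization (1948 genes), with library weights (125 genes), with the 2 groups alone (170 genes) and with the stricter filter (1614 genes), which leaves out Egr2 and Egr3. It was 1 with each library centred on its median (1935 genes), a setting added after the data were seen. Neutrophil markers (937 and 557 CPM in dabigatran hearts against 95.3 and 139 CPM in untreated hearts) had 5 of 7 called higher, and so had macrophage and monocyte markers, at 530 to 647 CPM in dabigatran hearts against 164 to 173 CPM in untreated hearts. B cell markers had 3 of 3 called higher, at 4.51 to 8.20 CPM in dabigatran hearts against 0.923 to 1.52 CPM in untreated hearts, and cardiomyocyte markers had 2 of 5 called lower. Of the other lists, 1 of 2 atrial and 1 of 6 smooth muscle and pericyte markers were called higher, and of 6 endothelial markers 1 was called higher and 1 lower.

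aPC against untreated hearts. Of the 10 members, 7 were lower in aPC hearts and 0 higher, where 10.2% of all tested genes were called lower and 7.44% higher. All 4 Fos genes were among them. Fosb was 6.64-fold lower (log2 -2.73 ± 0.56, limma-trend adjusted p = 0.0124), Fos 6.24-fold lower (-2.64 ± 0.53, limma-trend adjusted p = 0.0113), Fosl2 4.10-fold lower (-2.03 ± 0.33, limma-trend adjusted p = 0.00491) and Fosl1 2.81-fold lower (-1.49 ± 0.31, limma-trend adjusted p = 0.013). Egr2 was 3.73-fold lower (-1.90 ± 0.40, limma-trend adjusted p = 0.0136), Egr1 3.55-fold lower (-1.83 ± 0.38, limma-trend adjusted p = 0.0132) and Junb 2.84-fold lower (-1.50 ± 0.30, limma-trend adjusted p = 0.0111). Jun at -0.65 ± 0.30 and Egr3 at -0.54 ± 0.45 did not pass (limma-trend adjusted p = 0.148 and 0.405), and Jund stood at 0.12 ± 0.22. Libraries were apart with aPC lower for 8 members and higher for 0, against 27.6% and 31.6% of all genes. The median log2 fold change was -1.67 over the members and 0.07 over all tested genes. Without aPC-792 the count of members called was 0, and without aPC-791 it was 2, Fosl2 and Junb, when 239 and 895 of all genes were called in place of 2384. Without any other library it stayed at 7. It was 0 with the 2 groups fitted alone (3 genes) and 1 with library weights (234 genes). Macrophage and monocyte markers (4 of 7 called higher) summed to 530 to 561 CPM in aPC hearts against 164 to 173 CPM in untreated hearts. The neutrophil markers, at 103 and 41.0 CPM in aPC hearts against 95.3 and 139 CPM in untreated hearts, had 0 of 7 called in this comparison by limma-trend and 0 by voom, with 3 at an unadjusted p under 0.05. Of the other lists, 2 of 6 smooth muscle and pericyte markers were called lower, and of 6 endothelial markers 1 was called higher and 2 lower.

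The 3 drug comparisons above share the untreated pair, so their values are set side by side and no agreement between them is counted. Fosl2 stood at -0.33 with dabigatran, -1.95 with rivaroxaban and -2.03 with aPC on the log2 scale. Egr2 stood at 1.43 with dabigatran, -2.06 with rivaroxaban and -1.90 with aPC. Differences between drugs were therefore tested directly. The doses of the drugs differ (10 mg/kg of dabigatran, 3 mg/kg of rivaroxaban, 1 mg/kg of aPC), and so do their schedules. Drug, dose and schedule therefore cannot be told apart. Rivaroxaban and aPC against dabigatran share the dabigatran pair, so their results are not independent of each other.

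Rivaroxaban against dabigatran hearts. Every member had a negative log2 fold change, and 6 of 10 were called lower in rivaroxaban hearts, where 14% of all tested genes were called lower and 9.39% higher. Egr2 was 11.3-fold lower (log2 -3.49 ± 0.40, limma-trend adjusted p = 0.000592) and Egr3 4.72-fold lower (-2.24 ± 0.45, limma-trend adjusted p = 0.00671). Fosl1 was 4.56-fold lower (-2.19 ± 0.31, limma-trend adjusted p = 0.00136), Junb 3.34-fold lower (-1.74 ± 0.30, limma-trend adjusted p = 0.00328), Fosl2 3.09-fold lower (-1.63 ± 0.33, limma-trend adjusted p = 0.00676) and Fosb 5.74-fold lower (-2.52 ± 0.56, limma-trend adjusted p = 0.011). Fos at -1.49 ± 0.53, Egr1 at -0.82 ± 0.38, Jund at -0.60 ± 0.22 and Jun at -0.59 ± 0.30 did not pass (limma-trend adjusted p = 0.0679, 0.149, 0.0792 and 0.185). Libraries were apart with rivaroxaban lower for 9 members and higher for 0, against 36.3% and 33.7% of all genes. The median log2 fold change was -1.68 over the members and 0.00 over all tested genes. Egr2, Fosl1 and Junb were called in all 11 fits that left out a library. The count of members called was 3, these same genes, without Dabi-202 and 4 without Riva-313, when 939 and 919 of all genes were called in place of 3161. It was 3 with the stricter filter (2847 genes), under which 7 members were tested and Egr2, Egr3 and Fosb were not. Neutrophil markers were lower as well, at 17.3 and 39.2 CPM in rivaroxaban hearts against 937 and 557 CPM in dabigatran hearts, with 7 of 7 called lower. Macrophage and monocyte markers had 5 of 7 called lower, at 298 to 328 CPM in rivaroxaban hearts against 530 to 647 CPM in dabigatran hearts. Of the other lists, 1 of 2 atrial markers was called lower, 1 of 6 fibroblast and 2 of 6 smooth muscle and pericyte markers were called higher, and of 6 endothelial markers 1 was called higher and 1 lower.

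aPC against dabigatran hearts. All members but Jund were called lower in aPC hearts, 9 of 10, where 12.3% of all tested genes were called lower and 9.21% higher. Egr2 was 10.1-fold lower (log2 -3.33 ± 0.40, limma-trend adjusted p = 0.00118), Fosl1 5.76-fold lower (-2.53 ± 0.31, limma-trend adjusted p = 0.00125) and Junb 3.16-fold lower (-1.66 ± 0.30, limma-trend adjusted p = 0.00494). Fosb was 7.64-fold lower (-2.93 ± 0.56, limma-trend adjusted p = 0.00646), Fosl2 3.27-fold lower (-1.71 ± 0.33, limma-trend adjusted p = 0.00644) and Egr3 4.83-fold lower (-2.27 ± 0.45, limma-trend adjusted p = 0.00737). Fos was 5.24-fold lower (-2.39 ± 0.53, limma-trend adjusted p = 0.0119), Egr1 2.96-fold lower (-1.56 ± 0.38, limma-trend adjusted p = 0.0179) and Jun 1.92-fold lower (-0.94 ± 0.30, limma-trend adjusted p = 0.0496). This was the only comparison of the 10 in which Jun was called, and its call held in 3 of the 11 fits that left out a library. Junos, the antisense gene that overlaps Jun, was also lower (-1.06 ± 0.32, limma-trend adjusted p = 0.0388), while Prdx2, the partner of Junb, was higher (0.59 ± 0.14, limma-trend adjusted p = 0.0178) and Ccdc85b, the partner of Fosl1, stood at 0.15 ± 0.21. Libraries were apart with aPC lower for 9 members and higher for 0, against 36.1% and 29.4% of all genes, and the median log2 fold change was -1.99 over the members and -0.05 over all tested genes. The count of members called was 4 without Dabi-202 and 5 without aPC-791 or aPC-792, when 1160, 1249 and 871 of all genes were called in place of 2913. Egr2, Fosl1 and Junb were called in all 11 such fits. Neutrophil markers, at 103 and 41.0 CPM in aPC hearts against 937 and 557 CPM in dabigatran hearts, had 6 of 7 called lower. Smooth muscle and pericyte markers had 4 of 6 called lower and 1 higher, fibroblast markers 3 of 6 called higher (2187 to 2298 CPM in aPC hearts against 1185 to 1494 CPM in dabigatran hearts) and cardiomyocyte markers 2 of 5 called higher. In the macrophage and monocyte, B cell, endothelial and atrial lists 1 marker each was called lower.

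aPC against rivaroxaban hearts. No difference of a member passed the test. The count was 0 of 10 by limma-trend and 0 by voom, with 0 members at an unadjusted p under 0.05, where 0.207% of all tested genes were called higher and 1.33% lower. The aPC libraries lay below the rivaroxaban ones for 4 members (30.3% of all genes), Egr1, Fos, Fosl1 and Jun, and above them for Jund (33.3%). Intervals were wide: 95% limits of the log2 fold change ran from -2.08 to 0.27 for Fos, from -1.59 to 0.11 for Egr1, from -0.73 to 1.05 for Egr2, from -0.81 to 0.65 for Fosl2 and from -0.58 to 0.74 for Junb. With the 2 groups fitted alone, 1 member was called, when 1947 of all genes were called in place of 208.

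Drugs against sham hearts. Dabigatran hearts carried more Egr2, Fosb, Fosl1, Fosl2 and Junb mRNA than sham hearts, and no member was called for rivaroxaban or aPC. For dabigatran, 5 of 10 members were called higher and 0 lower, where 11.7% of all tested genes were called higher and 6.82% lower. Fosl1 was 5.13-fold higher (log2 2.36 ± 0.28, limma-trend adjusted p = 0.00127), Fosb 4.86-fold higher (2.28 ± 0.51, limma-trend adjusted p = 0.015) and Egr2 3.77-fold higher (1.91 ± 0.37, limma-trend adjusted p = 0.00759). Fosl2 was 2.38-fold higher (1.25 ± 0.30, limma-trend adjusted p = 0.0191) and Junb 2.32-fold higher (1.21 ± 0.27, limma-trend adjusted p = 0.0149). Egr3 at 1.26 ± 0.41 did not pass (limma-trend adjusted p = 0.0573). The libraries were apart with dabigatran higher for 6 members and lower for 0, against 30% and 25.9% of all genes, and the median log2 fold change was 1.23 over the members and 0.01 over all tested genes. Fosl1 was called in all 11 fits that left out a library, but it was the 1 member called without Dabi-202, when 374 of all genes were called in place of 2508. The count was 3 without sham replicate 006 (1366 genes) or with the stricter filter (2306 genes), under which Egr2, Egr3 and Fosb were not tested. Neutrophil markers were called higher in 7 of 7 here, macrophage and monocyte markers in 2 of 7, and B cell and atrial markers in 1 of 3 and 1 of 2. Cardiomyocyte markers were called lower in 2 of 5, fibroblast markers in 2 of 6, and endothelial and smooth muscle and pericyte markers in 1 of 6 each.

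For rivaroxaban against sham hearts, limma-trend called 0 of 13541 genes, 0% of those tested, with 761 at an unadjusted p under 0.05; voom on recovered reads also called 0. Members were called 0 of 10, and 2 had an unadjusted p under 0.05. Egr2 had the lowest p, at log2 -1.58 ± 0.37 (limma-trend adjusted p = 0.475), and its rivaroxaban libraries lay below all 3 sham libraries, as did those of 4 members in all against 16.4% of all genes. Fosl1 was the 1 member with rivaroxaban libraries above sham, as 16% of all genes had. With library weights 1 member was called, and 198 of all genes. For aPC against sham hearts, limma-trend called 0 of 10 members, with 5 at an unadjusted p under 0.05 and 0 called by voom, where 0.126% of all tested genes were called higher and 1.05% lower. Fos stood at -1.65 ± 0.48 (limma-trend adjusted p = 0.139), Egr2 at -1.42 ± 0.37 (limma-trend adjusted p = 0.0986) and Egr1 at -0.92 ± 0.35 (limma-trend adjusted p = 0.232). The aPC libraries lay below all sham libraries for 7 members, against 23.3% of all genes, and above them for 0, against 24%. The count of members called was 1 (Egr2) without untreated replicate 17 or 19, 1 with the 2 groups alone and 4 with library weights, when 779, 776, 813 and 1784 of all genes were called in place of 159.

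**Figure D4:**
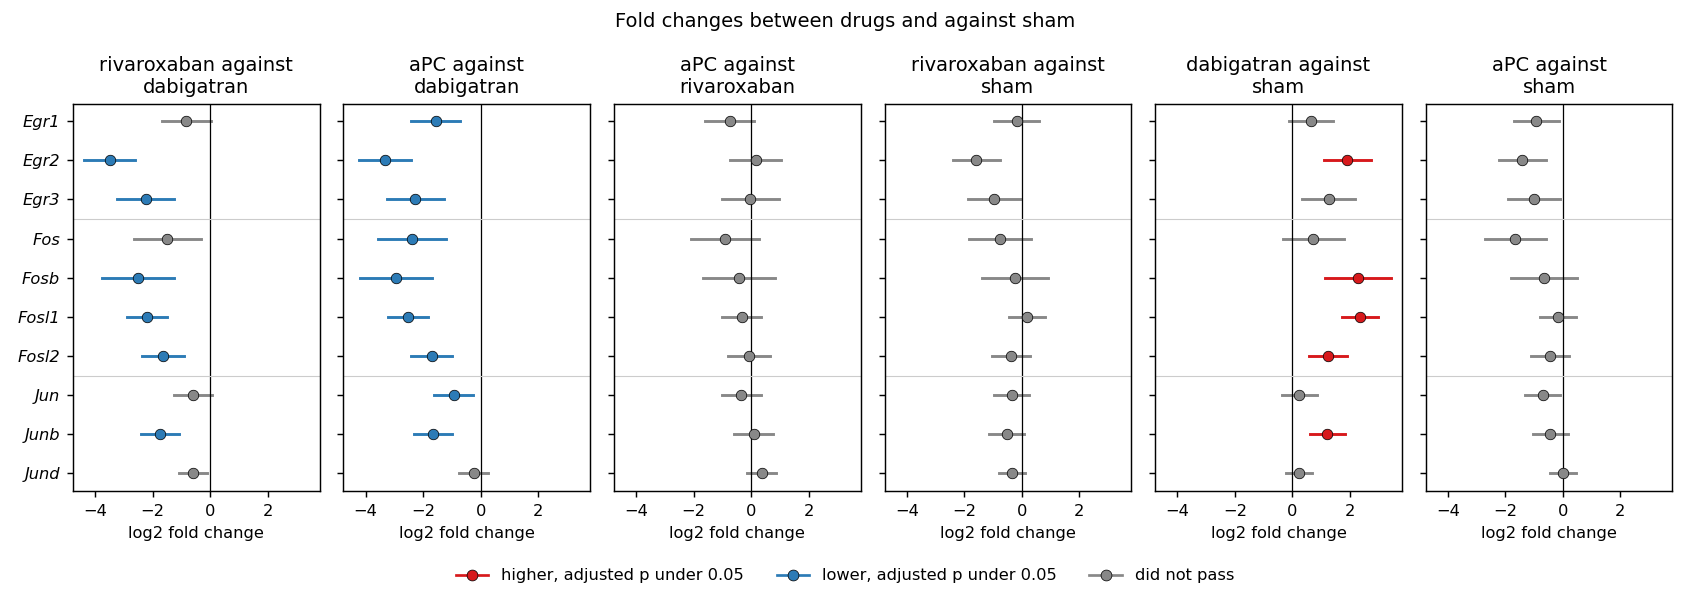
Log2 fold change of each member with its 95% interval from limma-trend, between drugs and for each drug against sham hearts; red and blue mark members called higher and lower, and grey those that did not pass. Rivaroxaban and aPC against dabigatran show 6 and 9 blue members, dabigatran against sham 5 red members, and the other 3 panels none.

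Other immediate-early genes were counted over a list of 17 tested genes outside the Egr, Fos and Jun families, among them Myc, Arc, the orphan receptors Nr4a1 to Nr4a3, Ier and Klf genes and the phosphatase Dusp1. Counts of this list and the later ones are to be read beside the shares of all tested genes called, given above for each comparison. In untreated against sham hearts 5 were called higher and 0 lower (median 0.82 over the list and -0.03 over all genes). Myc, a driver of cell growth, read 4.67 and 4.96 log2 CPM in untreated hearts against 2.83, 2.52 and 2.52 in sham hearts, a difference of 2.19 ± 0.33 (limma-trend adjusted p = 0.00566). Arc, an activity-regulated gene, read 3.56 and 6.22 log2 CPM in untreated hearts against 1.64, 1.41 and 0.81 in sham hearts, so its groups are apart but the untreated pair differs widely (3.60 ± 0.74, limma-trend adjusted p = 0.0176). Calls over all genes stood at 447, 261 and 710 without sham replicates 003, 006 and 007. Leaving out either untreated replicate leaves 1 library in that group. Calls in the list numbered 8 with untreated replicate 17 left out, 2 without untreated replicate 19 or sham replicate 006, and 3 without sham replicate 003 or 007. In aPC against untreated hearts 10 were called lower and 0 higher (median -1.20 against 0.07). Nr4a1, an orphan nuclear receptor, read 3.41 and 3.77 log2 CPM in aPC hearts against 5.36 and 5.83 in untreated hearts, a difference of -2.0 ± 0.36 (limma-trend adjusted p = 0.00756). Dusp1, which inactivates MAP kinases, read 5.35 and 5.88 log2 CPM in aPC hearts against 7.10 and 7.12 in untreated hearts (-1.50 ± 0.25, limma-trend adjusted p = 0.00563). In dabigatran against untreated hearts 5.08% of all tested genes were called lower and 8.71% higher. Of the list, Dusp1 was the 1 gene called there, lower at 6.10 and 6.39 log2 CPM in dabigatran hearts (-0.86 ± 0.25, limma-trend adjusted p = 0.0455). That count was 0 without Dabi-202, Riva-313, Riva-319 or sham replicate 003 or 007, 4 lower without untreated replicate 17 and 2 higher without Dabi-204. The aPC count was 5 without aPC-791 and 3 without aPC-792.

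In rivaroxaban against untreated hearts 5 of these 17 genes were called lower and 0 higher (median -0.80 against 0.02), Nr4a3 by -2.57 ± 0.52 and Myc by -1.87 ± 0.36 (limma-trend adjusted p = 0.0205 and 0.0173). Without untreated replicate 17 it was 9 and without untreated replicate 19 it was 2, against 1 without Riva-319 and 0 without Riva-313. In aPC against dabigatran hearts 11 were called lower, and in rivaroxaban against dabigatran hearts 6, with 0 higher in either. Myc had the lowest p in both, at -2.34 ± 0.36 (limma-trend adjusted p = 0.00273) and -2.39 ± 0.36 (limma-trend adjusted p = 0.00182). The aPC count was 2 without aPC-791 and 1 without aPC-792 or Dabi-202. The rivaroxaban count was 3 without Dabi-202 or Riva-313, and without sham replicate 006 it was 5 lower and 1 higher.

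**Figure D5:**
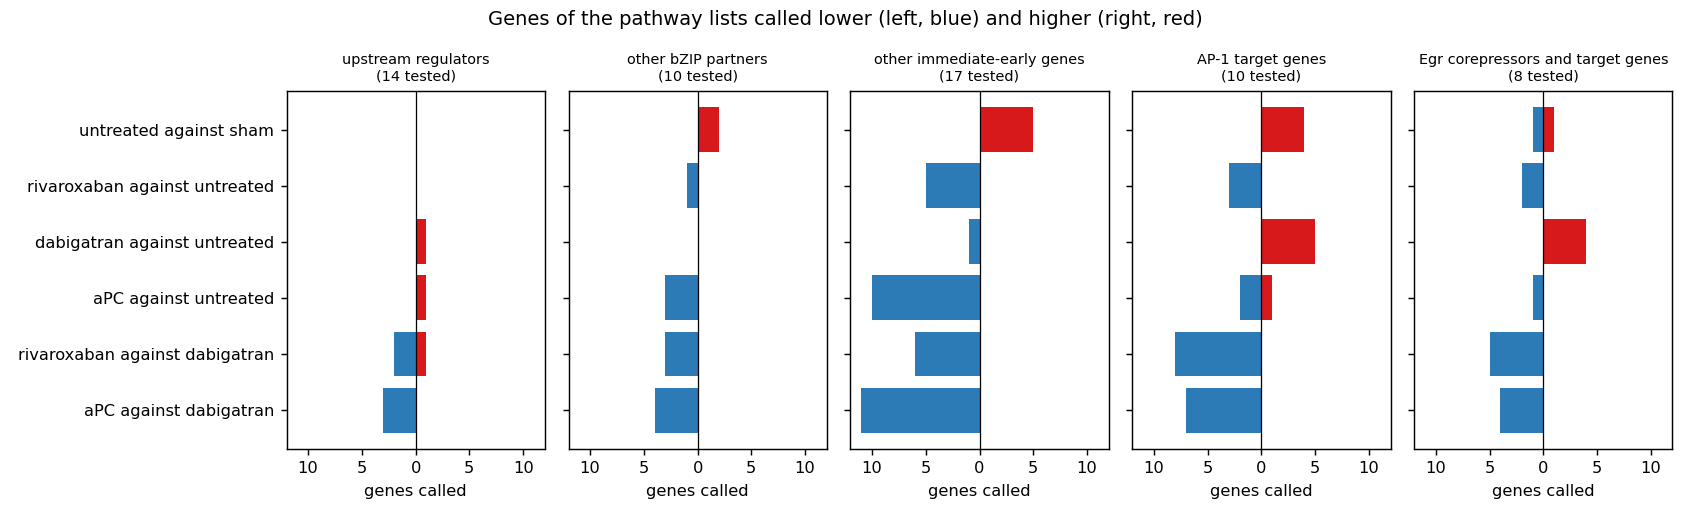
Number of genes called lower (blue, left of 0) and higher (red, right of 0) by limma-trend in 5 lists around the Egr, Fos and Jun genes, for 6 comparisons. The upstream regulators (14 tested) show at most 3 genes in any row, and the other immediate-early genes (17 tested) show up to 11.

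The list of genes known as AP-1 targets had 10 tested genes, of matrix turnover and plasminogen activation together with the cytokine gene Il6, the haem-degrading enzyme gene Hmox1 and the hyaluronan receptor gene Cd44. In dabigatran against untreated hearts 5 were called higher and 0 lower (median 1.43 over the list and 0.05 over all genes). Spp1, which encodes osteopontin, read 8.20 and 7.74 log2 CPM in dabigatran hearts against 4.4 and 2.93 in untreated hearts (4.30 ± 0.69, limma-trend adjusted p = 0.00403). Mmp9, a gelatinase that is also among the neutrophil markers, read 6.67 and 6.89 log2 CPM in dabigatran hearts against 3.62 and 4.01 in untreated hearts (2.96 ± 0.37, limma-trend adjusted p = 0.00121). The count was 3 without Dabi-202. In aPC against untreated hearts the list was mixed, with 1 called higher and 2 lower (median -0.47 over the list and 0.07 over all genes). There 7.44% of all tested genes were called higher and 10.2% lower. In rivaroxaban against dabigatran hearts 8 were called lower and 0 higher, where 14% of all tested genes were called lower and 9.39% higher. No left-out library moved the count of 8 by more than 1.5 times. In aPC against dabigatran hearts 7 were called lower, and 4 without aPC-792 or Dabi-202.

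Plaur, the urokinase receptor, read 3.40 and 2.39 log2 CPM in aPC hearts, 6.29 and 5.62 in dabigatran hearts, 2.03 and 2.54 in rivaroxaban hearts, 5.33 and 5.70 in untreated hearts, and 2.56, 2.68 and 3.25 in sham hearts. Dabigatran and untreated libraries overlapped and lay above all others. In untreated against sham hearts 4 AP-1 target genes were called higher and 0 lower, Plaur by 2.69 ± 0.34 (limma-trend adjusted p = 0.00255), but only 1 without untreated replicate 19 or any 1 of the 3 sham libraries. In rivaroxaban against untreated hearts 3 were called lower, Plaur by -3.23 ± 0.37 (limma-trend adjusted p = 0.00265); the count was 6 without untreated replicate 17 and 1 without untreated replicate 19 or Riva-313.

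Proteins that pair with Fos and Jun, or compete with them, were listed as 10 tested bZIP genes. Maff, a small Maf protein that is on the immediate-early list too, read 3.95 and 3.16 log2 CPM in aPC hearts, 5.63 and 4.79 in dabigatran hearts, 3.36 and 3.59 in rivaroxaban hearts, 5.58 and 5.86 in untreated hearts, and 4.09, 3.69 and 4.06 in sham hearts. Its dabigatran and untreated libraries lay above all others. It was lower in rivaroxaban than in untreated hearts (-2.25 ± 0.31, limma-trend adjusted p = 0.00536, a call lost without Riva-313) and in aPC than in untreated hearts (-2.17 ± 0.31, limma-trend adjusted p = 0.00337). Atf3, a stress-induced partner of Jun, read 2.36 and 1.89 log2 CPM in aPC hearts and 6.45 and 4.58 in dabigatran hearts, a difference of -3.39 ± 0.66 (limma-trend adjusted p = 0.00665). In aPC against dabigatran hearts 4 of the 10 were called lower and 0 higher. That count was 2 without aPC-791 and 0 without aPC-792 or Dabi-202, and 1 gene was called higher without either untreated library.

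The upstream regulators, 14 tested genes of the MAP kinase cascade, the Elk factors, the Mrtf coactivators and Creb1, were counted at the mRNA level. In rivaroxaban against dabigatran hearts 1 was called higher and 2 lower, where 9.39% of all tested genes were called higher and 14% lower. In aPC against dabigatran hearts 3 were called lower and 0 higher, where 12.3% of all genes were called lower and 9.21% higher. Map2k1 was the 1 gene called, higher, in dabigatran against untreated and against sham hearts (8.71% and 11.7% of all genes). In untreated against sham hearts limma-trend called 0 of 14, as it did in rivaroxaban against untreated hearts, with 3 at an unadjusted p under 0.05 and 0 by voom in each, but without untreated replicate 17 it called 3 higher and 4 lower in the first comparison and 4 higher and 2 lower in the second, when 5197 and 5029 of all 13541 genes were called. With all libraries, 5.07% of all genes were called higher and 5.52% lower in the first comparison, and 4.02% and 4.45% in the second. In aPC against untreated hearts these shares were 7.44% and 10.2%. The median log2 fold change was -0.05 in untreated against sham hearts, with Mapk3, which encodes ERK1, lowest in p at -0.60 ± 0.18 (limma-trend adjusted p = 0.056). In aPC against untreated hearts Mapk3 was the 1 gene called, at 0.90 ± 0.19 (limma-trend adjusted p = 0.0143): it read 6.30 and 6.19 log2 CPM in aPC hearts against 5.65 and 5.04 in untreated hearts. That count was 0 without aPC-791 or aPC-792; it was 5 without untreated replicate 17, of which 2 were lower (5235 of all genes called), and 2 without untreated replicate 19, of which 1 was lower (1986 genes).

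Of the Egr corepressors and target genes, all 8 were tested. In untreated against sham hearts 1 was called higher and 1 lower (median -0.07 over the list and -0.03 over all genes). In rivaroxaban against untreated hearts 2 were called lower and 0 higher (median -0.12 against 0.02). In aPC against untreated hearts 1 was called lower and 0 higher (median 0.07 against 0.07). Nab2, the corepressor induced by Egr proteins, read 4.50 and 4.11 log2 CPM in dabigatran hearts against 3.70 and 3.21 in untreated hearts (0.85 ± 0.21, limma-trend adjusted p = 0.0285), so the dabigatran pair was above the untreated pair. In dabigatran against untreated hearts 4 were called higher and 0 lower; the count was 1 without Dabi-202 or untreated replicate 19 and 2 without sham replicate 003. Thbs1, which encodes thrombospondin 1, read 4.84 and 4.59 log2 CPM in aPC hearts, 7.62 and 7.46 in dabigatran hearts, 3.39 and 4.88 in rivaroxaban hearts, 6.60 and 7.63 in untreated hearts, and 5.0, 5.08 and 4.72 in sham hearts. Its dabigatran and untreated libraries were above all others. In rivaroxaban against dabigatran hearts 5 of 8 were called lower, with Thbs1 at -3.40 ± 0.43 (limma-trend adjusted p = 0.000754); the count was 3 without Dabi-202 or without either rivaroxaban library.

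Genes whose pattern was most like a member were found by the root mean square difference of log2 CPM over the 11 libraries. Each gene was first centred on its own mean. Predicted genes (Gm and Rik names) were left out of the ranking, so a closer one may exist. For Egr1 these were Nr4a1 (0.27 log2 units), Simc1 (0.30) and Cmip (0.31), and the closest other member was Fos (0.39). For Fos they were Cass4 (0.47), Apold1 (0.49) and Wdfy1 (0.50), all farther from it than Egr1 was. For Junb they were Csf2rb2 (0.21), Stx11 (0.23) and Sbno2 (0.24), with Fosl2 the closest member (0.29). For Fosl1 they were Mxd1 (0.23), Fhl1 (0.24) and Klhl41 (0.27), with Fosl2 the closest member (0.50). Jun and Jund were each other's closest member, at 0.35.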

How the data were processed

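PolyA RNA of 11 heart libraries was analysed from 1 table of the whole series. The authors deposited log2 CPM values, scaled by edgeR's TMM method, per the file headers and processing notes. The tools named, per the submitters' processing notes, are STAR, edgeR, Trim Galore, FastQC and bcl2fastq, with build mm10. Counter, annotation, strand setting and gene filter: not given in the sources used here. Turned back to CPM, 100% of the lower values checked in each library were whole reads to within 0.05 of a read, which gives the depth. Values of high read counts were not checked in this way. All columns of the table were used. Libraries were grouped by the labelled treatment.

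Genes with at least 0 log2 CPM in at least 3 libraries were tested with limma-trend (limma 3.58.1, R 4.3.3), two-sided, in 1 fit of 5 group means, with Benjamini-Hochberg adjustment over 13541 genes for each of 10 comparisons. All groups share 1 estimate of the spread. No batch is labelled. The procedure was run on simulated data with the same spread setting for every gene and group. That run cannot speak to groups of unlike spread. Of 16658 identifiers, 16654 matched GENCODE M21, which gave positions and exon lengths. Members, gene lists and motifs were chosen with earlier results of these data known, so no list is independent evidence. All members are named, and up to 4 genes per list and comparison, those with the smallest p, could be named; Plaur, Nr4a1, Dusp1, Arc, Spp1, Nab2 and Thbs1 are described with values for at least 1 comparison in which that rule took them. Of the lists, 1 upstream regulator (Srf), 1 immediate-early gene (Egr4) and 2 AP-1 targets (Timp1 and Ccl2) were not analysed here, and Atf7 did not pass the filter. Alternatives were no filter, a stricter filter (2 log2 CPM), quantile normalization, a pseudocount of 1 CPM, the 2 groups alone, library weights, voom on recovered reads, each library left out in turn and, added after the data were seen, centring on the median. Figures were drawn with matplotlib 3.10.9.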

Additional observations from a re-analysis of the deposited data

How the results depend on the processing

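No paired analysis was possible because the groups share no replicate numbers. Groups hold 2 or 3 libraries, and depth is low for some members: the libraries held 11 to 113 reads of Egr3, 14 to 307 of Egr2 and 16 to 241 of Fosb, against 2114 to 3901 of Jund. Leaving out a library of a pair leaves 1 library that is assumed to vary like the other groups. Leaving out a library of a group outside a comparison keeps its fold changes, so such fits test a call less directly. The range of the count of members called when each library was left out was 0 to 4 for untreated against sham, 0 to 5 for rivaroxaban against untreated, 0 to 4 for dabigatran against untreated, 0 to 7 for aPC against untreated, 0 to 0 for rivaroxaban against sham, 1 to 7 for dabigatran against sham, 0 to 1 for aPC against sham, 3 to 8 for rivaroxaban against dabigatran, 0 to 0 for aPC against rivaroxaban and 4 to 9 for aPC against dabigatran. With only the 2 groups compared in the fit, the count was 2 for untreated against sham, 0 for each drug against untreated, 1 for aPC against sham and 1 for aPC against rivaroxaban; fewer libraries then estimate the spread. With library weights it was 0 for untreated against sham, for rivaroxaban against untreated and for dabigatran against untreated, 1 for aPC against untreated and for rivaroxaban against sham, and 4 for aPC against sham, with the untreated pair down-weighted. The stricter filter, which tests 7 members, gave 3 for rivaroxaban against untreated, dabigatran against sham and rivaroxaban against dabigatran, and 0 for dabigatran against untreated. Voom gave 3 for rivaroxaban against untreated. For dabigatran against untreated, quantile normalization gave 0 and median centring 1; the cause was not tested.

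Single members reversed in direction where their fold change was small. After quantile normalization Fosb stood at -0.031 in dabigatran against untreated, Jund at -0.040 in aPC against sham and Egr3 at 0.38 in aPC against rivaroxaban, where median centring gave 0.0015 for Egr3. Leaving out 1 library gave, for dabigatran against untreated, -0.63 to 0.13 for Fos, -0.51 to 0.91 for Fosb, -0.86 to 0.21 for Fosl2, -0.23 to 0.82 for Jun, -0.29 to 0.60 for Junb and -0.044 to 0.77 for Jund. For aPC against rivaroxaban it gave -0.36 to 0.68 for Egr2, -0.28 to 0.21 for Egr3, -1.01 to 0.18 for Fosb, -0.25 to 0.089 for Fosl2 and -0.13 to 0.29 for Junb. For rivaroxaban against sham it gave -0.55 to 0.25 for Egr1 and -0.84 to 0.35 for Fosb; for dabigatran against sham, -0.28 to 0.77 for Jun and -0.16 to 0.65 for Jund; for untreated against sham, -0.23 to 0.10 for Jun and -0.25 to 0.015 for Jund. For Jund it gave -0.65 to 0.17 in aPC against dabigatran, -0.11 to 0.12 in aPC against sham and -0.010 to 0.26 in aPC against untreated.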
